A study of Caenorhabditis elegans with 2 samples.

Results

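The regions described are the 5' regions of the 346 nuclear genes that the Ensembl annotation of the C. elegans genome (WBcel235, which is ce11) classes as small nucleolar RNA (snoRNA) genes, among 46890 nuclear genes in all. They were chosen by that class alone, with no measured value, and each region covers the 1000 bp before and the 200 bp after the annotated 5' end. Of the 346 genes, 216 lay wholly inside the span of a protein-coding gene and 130 lay outside. Sites of MEF-2 were read from 4 deposited peak lists, and a site is the point source of a peak, the single base that the authors' caller gave as its centre of enrichment.

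MEF-2 is the C. elegans homolog of the MEF2 transcription factors. The worms were mixed-sex whole L1 larvae, the earliest larval stage, of strain OP301, which carries unc-119(tm4063) on chromosome III and the insertion wgIs301, a transgene that adds eGFP-tagged MEF-2. The labels give no age beyond the stage, name no promoter for the transgene and record the antibody as mef-2. Chromatin immunoprecipitation and sequencing (ChIP-seq) was done in 2 biological replicates, which form 1 group, so there is no second condition to compare. The authors deposited a relaxed list for each replicate (30000 peaks for replicate 1 and 16385 for replicate 2), a relaxed list of the pooled replicates (28182) and a list of 832 peaks thresholded on the irreproducible discovery rate, which scores how well the ranks of 2 replicates match. The replicate 2 list held 0 mitochondrial peaks, the replicate 1 list 32 and the thresholded list 26. A thresholded peak thus need not have a peak in the lists of both replicates. The strongest thresholded peak, with a signal value of 428, lay in mef-2 itself, whose sequence the transgene also carries. No read counts, coverage or control reads were analysed here, and the depth is therefore unknown. In whole larvae, binding in few cells and weak binding in many cannot be told apart.

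snoRNAs guide the chemical modification of ribosomal and other RNAs inside the nucleolus. C/D box snoRNAs direct 2'-O-methylation and carry the short C and D boxes near their ends, and H/ACA box snoRNAs direct pseudouridylation and end shortly after the bases ACA. Many lie in introns and are cut out of the spliced host transcript, while others are transcribed from promoters of their own. In animals, such promoters can resemble those of small nuclear RNA (snRNA) genes, or those of transfer RNA (tRNA) genes, which RNA polymerase III recognises through an A box and a B box.

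A pair of recurring elements stood before the 5' ends of members whose thresholded site lay close by, and the regions from 120 to 1 bases upstream are shown because the sites fell within them. All sequences here were read from the WBcel235 (ce11) genome as held by RefSeq and are written 5' to 3' on the strand of the gene. In the first 3 sequences the capitals mark AACCCG, any 5 bases and TGTC, called the spaced element below.
Y53F4B.47, chrII:15025894-15026013, minus strand: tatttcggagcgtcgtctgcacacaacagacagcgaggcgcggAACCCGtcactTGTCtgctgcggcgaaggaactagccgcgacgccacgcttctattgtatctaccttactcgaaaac
smy-2, chrIV:9511467-9511586, minus strand: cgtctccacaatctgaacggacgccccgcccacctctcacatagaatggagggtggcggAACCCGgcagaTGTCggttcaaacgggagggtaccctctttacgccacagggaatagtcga
ZK994.7, chrV:8500459-8500578, plus strand: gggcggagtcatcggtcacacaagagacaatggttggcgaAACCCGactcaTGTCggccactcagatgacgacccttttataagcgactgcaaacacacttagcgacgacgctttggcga

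In the next 5 sequences the capitals mark an A box (TNGNNNAG, where N is any base) and, 15 to 60 bases after it on the same strand, a B box (GTTCNANNC).
M106.6, chrII:10840197-10840316, plus strand: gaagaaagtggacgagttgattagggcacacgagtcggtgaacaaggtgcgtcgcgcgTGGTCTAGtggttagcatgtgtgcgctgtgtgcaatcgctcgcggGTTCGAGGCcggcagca
W03C9.9, chrII:11960778-11960897, plus strand: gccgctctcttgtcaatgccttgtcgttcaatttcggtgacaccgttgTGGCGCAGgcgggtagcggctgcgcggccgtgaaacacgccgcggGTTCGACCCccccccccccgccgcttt
F30H5.4, chrIII:502684-502803, plus strand: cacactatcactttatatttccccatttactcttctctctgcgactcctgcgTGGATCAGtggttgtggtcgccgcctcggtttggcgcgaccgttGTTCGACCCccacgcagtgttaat
F55A11.10, chrV:11782872-11782991, plus strand: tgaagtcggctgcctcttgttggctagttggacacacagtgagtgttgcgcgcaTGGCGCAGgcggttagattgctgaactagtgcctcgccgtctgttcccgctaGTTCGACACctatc
Y75B12B.12, chrV:15191094-15191213, minus strand: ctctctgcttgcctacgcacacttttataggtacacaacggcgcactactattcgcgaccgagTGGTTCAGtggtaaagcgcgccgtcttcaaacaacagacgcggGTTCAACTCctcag

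The last 2 sequences precede M7.15 and D2021.6, which had the strongest nearby sites among members outside protein-coding genes and held neither element.
M7.15, chrIV:11083027-11083146, plus strand: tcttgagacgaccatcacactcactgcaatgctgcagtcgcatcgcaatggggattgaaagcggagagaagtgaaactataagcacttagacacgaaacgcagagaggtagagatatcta
D2021.6, chrX:8546205-8546324, minus strand: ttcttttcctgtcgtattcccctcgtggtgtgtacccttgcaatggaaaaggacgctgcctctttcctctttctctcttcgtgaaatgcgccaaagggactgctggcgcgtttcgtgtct

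In the thresholded list, 34 of the 346 snoRNA genes (9.83%, 95% Wilson interval 7.12 to 13.4%) had a site in their window, against 585 of 19973 protein-coding genes (2.93%) and 2.01% of all nuclear genes. Inside protein-coding genes the count was 15 of 216 (6.94%, 4.25 to 11.1%), and outside them it was 19 of 130 (14.6%, 9.56 to 21.7%). The share was above the protein-coding background in both classes, and the intervals of the classes overlapped. The intervals cover counting error alone and treat genes as independent, although 2 sites served 2 snoRNA genes each, which left 32 distinct sites. Among other non-coding genes, 27 of 612 tRNA genes (4.41%) and 8 of 129 snRNA genes (6.20%) had a thresholded site.

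Per length of sequence, the snoRNA windows held 80.5 thresholded sites per Mb, against 20.2 per Mb in protein-coding windows and 8.04 per Mb over the nuclear genome. The windows covered 0.396% of the nuclear length and took 3.97% of the nuclear sites. The density was 53.9 per Mb inside and 122 per Mb outside protein-coding genes. In the pooled list the contrast was smaller, with 599 sites per Mb in snoRNA windows against 365 per Mb in protein-coding windows.

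The relaxed lists, which reach far weaker peaks, placed a site at more than 4 in 10 snoRNA genes each. In the pooled list 200 snoRNA genes had one (57.8%, 52.5 to 62.9%), against 38.5% of protein-coding genes and 36.4% of all nuclear genes. In the replicate 1 list the count was 196 (56.6%, 51.4 to 61.8%), against 39.6% of protein-coding and 38.5% of all nuclear genes. In the replicate 2 list it was 162 (46.8%, 41.6 to 52.1%), against 25.3% of protein-coding and 21.6% of all nuclear genes. The share was above both backgrounds in each list, but it was not particular to snoRNA genes. Of tRNA genes, 58.2% had a pooled site, 54.6% a replicate 1 site and 41.5% a replicate 2 site. For snRNA genes the shares were 40.3%, 38.8% and 23.3%. The classes were close here, with 122 of 216 inside and 78 of 130 outside in the pooled list, with 55.1% inside and 59.2% outside in replicate 1, and with 44.4% inside and 50.8% outside in replicate 2.

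**Figure D1:**
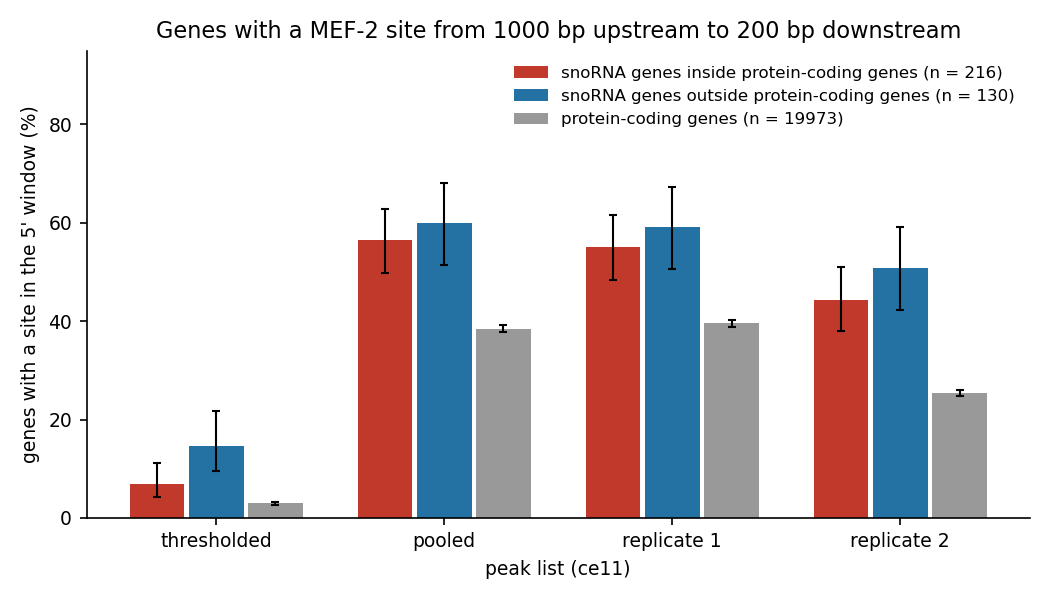
Percent of genes with a MEF-2 site in the 5' window (vertical axis) in each of the 4 peak lists, for snoRNA genes inside and outside protein-coding genes and for protein-coding genes; error bars are 95% Wilson intervals. Both snoRNA classes stood above protein-coding genes in each list, from 6.94% and 14.6% against 2.93% in the thresholded list to 122 of 216 and 78 of 130 against 38.5% in the pooled list.

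Both replicates placed a site in the window of 129 snoRNA genes (37.3%), against 16.1% of protein-coding genes. Replicate 1 alone did so for 67 snoRNA genes (19.4%), replicate 2 alone for 33 (9.54%), and neither for 117 (33.8%). The same shares of protein-coding genes were 23.4%, 9.18% and 51.2%, so those for replicate 2 alone were close. A total of 33 snoRNA genes had a site in all 4 lists (9.54%), against 2.87% of protein-coding genes. Another 92 (26.6%) had one in both replicates and the pooled list but none in the thresholded list, against 12.5% of protein-coding genes. These counts take a site anywhere in the window, so the lists need not place the same site there. Y65B4BR.12, for example, had its site at −557 bp in replicate 1 and at −82 bp in replicate 2. No list placed a site at 108 snoRNA genes (31.2%), 70 inside and 38 outside protein-coding genes, against 48.3% of protein-coding genes.

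Many snoRNA windows share sequence with the 5' window of a protein-coding gene, and sites there cannot be credited to the snoRNA gene alone. Of the 155 snoRNA genes whose window overlapped a protein-coding 5' window, 23 had a thresholded site (14.8%, 10.1 to 21.3%), against 11 of the 191 whose window overlapped none (5.76%, 3.25 to 10%). Among the windows free of such overlap, the count was 4 of 122 inside protein-coding genes (3.28%, 1.28 to 8.13%) and 7 of 69 outside (10.1%, 5.0 to 19.5%). Genes of the general ncRNA class with windows equally free of overlap had shares of 1.61% inside and 1.84% outside. In this list the interval took in the ncRNA share for the inside class and lay above it for the outside class. In the pooled list it was the other way round, with 51.6% of the free windows inside (42.9 to 60.3%) against 36.1% for ncRNA genes, and 50.7% of those outside (39.2 to 62.2%) against 43.0%. In replicate 1 the interval likewise lay above the ncRNA share inside and took it in outside, and in replicate 2 it took it in inside, with 32.8% (25.1 to 41.5%) against 27.4%, and lay above it outside. The lists thus did not separate the classes in the same way.

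The 34 genes split by what else their thresholded site touched. For 9 members, all inside, the site lay in the 5' window of the host gene itself, at a median of −562 bp from the snoRNA 5' end, where negative distances are upstream. For 13 members, 2 inside and 11 outside, it lay in the window of another protein-coding gene, at a median of −77 bp. For 12 members, 4 inside and 8 outside, it lay in no protein-coding window. Of the 32 sites, 23 were nearer to a snoRNA 5' end than to any protein-coding 5' end. All 32 were taken because they lie in a snoRNA window, so this nearness was partly built in.

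The sites clustered just upstream of snoRNA 5' ends, and this was not particular to snoRNA genes. The median distance of the strongest thresholded site was −150.5 bp for snoRNA genes, −51 bp for tRNA genes and −38.5 bp for snRNA genes. In the pooled list the medians were −98, −43.5 and −88 bp. Among genes with a thresholded site, the strongest site fell within the 100 bp upstream for 15 of 34 snoRNA genes (44.1%), 5 inside and 10 outside, against 13.3% of protein-coding genes. In the relaxed lists the same bin held the strongest site of 33.5% of snoRNA genes with a site in the pooled list, against 11.2% of protein-coding genes. It held that of 49 of 196 in replicate 1 and 59 of 162 in replicate 2 (36.4%), against 10.5% of protein-coding genes in each. Counted over whole classes in the pooled list, 17.1% of members inside and 26.2% of members outside had a site within 100 bp upstream, against 5.15% of protein-coding genes. In the next bin upstream the shares were 3.70% inside, 6.15% outside and 5.99% for protein-coding genes. In the first 100 bp downstream they were 7.41% inside, 13 of 130 genes outside and 3.38% for protein-coding genes, so the maximum lay in the last 100 bp before the 5' end in both snoRNA classes.

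**Figure D2:**
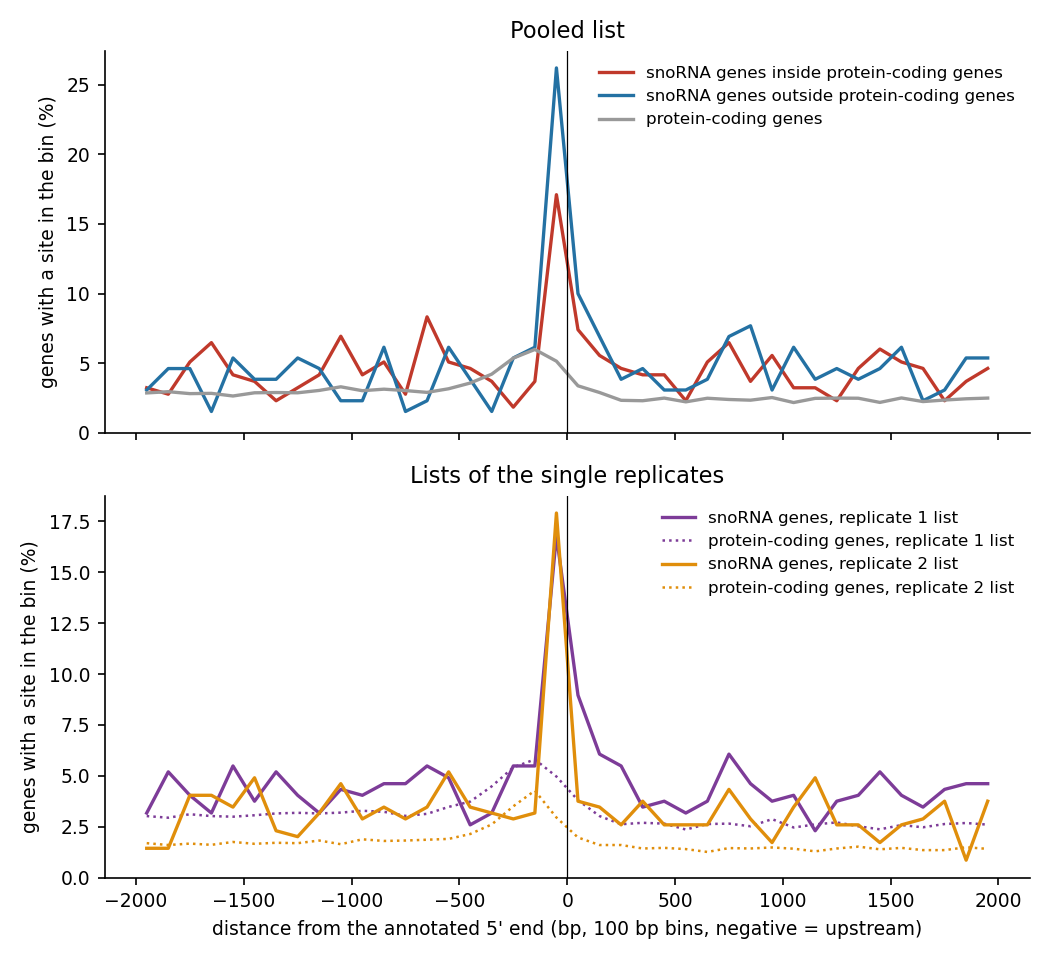
Percent of genes with a site in each 100 bp bin (vertical axis) by distance from the annotated 5' end in bp (horizontal axis, negative is upstream), in the pooled list above and in the lists of the single replicates below. snoRNA genes have a narrow maximum in the last bin before the 5' end, 17.1% inside and 26.2% outside in the pooled list and 16.8% and 17.9% in replicates 1 and 2, while protein-coding genes have a low, broad one.

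The 216 inside members lay in 192 host genes, most on the strand of the host (183) and in introns of every annotated host transcript (170). The hosts' own 5' windows held a thresholded site in 21 of 192 cases (10.9%, 7.27 to 16.1%), against 2.93% of protein-coding genes, and a pooled site in 67.2%, against 38.5%. Cytosolic ribosomal protein genes, which encode the protein part of the ribosome, made up 13 of the hosts and held 19 members. Of these 13, 3 had a thresholded site in their own window, against 18 of 179 other hosts (10.1%) and 29 of the 68 ribosomal protein genes with no snoRNA gene (42.6%). The 13 thresholded sites at members inside had a median signal value of 47.3 (27.5 to 147), and the 19 outside had a median of 33.9 (27.4 to 56.8), against 36.5 at protein-coding 5' ends. Signal values are those of the authors' caller on a scale that is not stated, so they were compared within a list only, and across replicates by rank, where rank 1 is the strongest peak. At these 32 sites the thresholded and pooled lists gave the same value and the same rank.

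The strongest sites at members inside lay more than 200 bp upstream of the snoRNA, in the 5' window of the host. Most of them also lay in the window of another protein-coding gene, so they cannot be credited to the host alone. The site of C06A1.9, an ACA box member in cdc-48.1 (a p97 AAA ATPase), had a signal value of 147 pooled, 108 in replicate 1 (rank 29) and 38.7 in replicate 2 (rank 7). It lay at position 10563577 of chromosome II, −513 bp from the snoRNA and −170 bp from the host 5' end. The site shared by K11H12.13 and K11H12.12, which sit together in the large-subunit ribosomal protein gene rpl-15, had values of 112 pooled, 73.2 in replicate 1 (rank 36) and 38.8 in replicate 2 (rank 6). It lay −562 bp and −893 bp from the snoRNA genes, in the windows of both rpl-15 and K11H12.8. F54C9.12, in iff-2 (a homolog of translation factor eIF5A), had a site at −664 bp, also in the window of F54C9.14. Its values were 106 pooled, 70.2 in replicate 1 (rank 38) and 36.4 in replicate 2 (rank 9). These sites were among the 40 strongest peaks of both replicates, and all lay nearer to the host's 5' end than to the snoRNA. F54E7.10 and F54E7.11, in the small-subunit ribosomal protein gene rps-12, shared a site with values of 77.1 pooled, 48.1 in replicate 1 (rank 95) and 31.1 in replicate 2 (rank 23). It lay −239 bp and −606 bp from the snoRNA genes, in the windows of both rps-12 and ska-3. The nearest protein-coding 5' end was that of ska-3, at −134 bp. Thus 6 members accounted for the 4 strongest sites, and all of them lay in the 5' window of their host. The snoRNA genes of C06A1.9 and K11H12.13 are shown as examples, with the ACA box in capitals.
C06A1.9, chrII:10562952-10563064, minus strand: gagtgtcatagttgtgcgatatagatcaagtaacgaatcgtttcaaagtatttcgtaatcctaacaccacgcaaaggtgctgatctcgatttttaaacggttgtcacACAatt
K11H12.13, chrIV:654229-654361, minus strand: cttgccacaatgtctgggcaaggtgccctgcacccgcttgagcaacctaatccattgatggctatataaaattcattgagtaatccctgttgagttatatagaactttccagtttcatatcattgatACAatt

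Other sites at inside members were weaker, and some lay next to the snoRNA and in no protein-coding 5' window. B0393.10, in the F-box gene fbxl-2, had a site at −723 bp, near the host 5' end, with values of 53.9 pooled, 44.6 in replicate 1 (rank 112) and 6.48 in replicate 2 (rank 1525). C02F5.15, in rfs-1 (a RAD-51 paralog) and fbxl-1, had one at −228 bp with values of 39.4 pooled, 31.5 in replicate 1 (rank 281) and 9.11 in replicate 2 (rank 778). Both lay in a host window, and B0393.10 ranked far lower in replicate 2 than in replicate 1. ZK994.7, in pxn-1 (a peroxidasin), had a site at −15 bp, 5675 bp downstream of the host 5' end, with values of 49.9 pooled, 34.3 in replicate 1 (rank 214) and 13.4 in replicate 2 (rank 324). That site also fell in the window of a tRNA gene, the single case among the 32 with a tRNA, snRNA or microRNA window. ZK484.9, on the opposite strand of haf-9 (an ABC transporter), had a site at −27 bp with values of 47.3 pooled, 37.7 in replicate 1 (rank 162) and 10.8 in replicate 2 (rank 535). M106.6, in mix-1 (an SMC subunit of condensin and of the dosage compensation complex), had a site at −87 bp with values of 31.9 pooled, 22.3 in replicate 1 (rank 657) and 8.36 in replicate 2 (rank 930). These 3 sites and that of T04A8.17 were the sites at inside members that lay in no protein-coding window. T04A8.17, on the opposite strand of ppat-1, had a site at 8 bp downstream with values of 27.9 pooled and 22.7 in replicate 1 (rank 632), and no interval in replicate 2 overlapped it.

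The remaining 3 inside members had pooled values of 27.5 to 36.4. The gene listed as smy-2, in C33A12.3, had a site at −65 bp with values of 36.4 pooled, 22.7 in replicate 1 (rank 629) and 11.1 in replicate 2 (rank 496). K02F3.15, in the bZIP gene zip-2, had one at −336 bp with 27.6 pooled, 21.0 in replicate 1 (rank 779) and 7.15 in replicate 2 (rank 1254). F55A11.10, in F55A11.6, had one at −56 bp with 27.5 pooled, 17.7 in replicate 1 (rank 1135) and 8.37 in replicate 2 (rank 926). Of these 3, smy-2 alone ranked among the 832 strongest peaks of both replicates. Its site also lay in the window of C33A12.4, and that of F55A11.10 in the window of F55A11.11. The site of K02F3.15 lay in the windows of its host zip-2 and of ceeh-1.

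Sites at members outside protein-coding genes were of more even strength. W01H2.11 had the strongest, at −599 bp and in no protein-coding window, with values of 56.8 pooled, 42.4 in replicate 1 (rank 129) and 9.16 in replicate 2 (rank 768). M7.15 had a site at −41 bp, in the windows of klc-1 (kinesin light chain) and let-70 (a ubiquitin-conjugating enzyme), with values of 56.1 pooled, 36.0 in replicate 1 (rank 186) and 21.5 in replicate 2 (rank 69). ZK20.9 had a site at −831 bp with values of 55.3 pooled, 33.5 in replicate 1 (rank 237) and 17.0 in replicate 2 (rank 169). The last of these lay nearer to din-1, a transcriptional corepressor gene, than to the snoRNA. T27A8.8 had a site at −809 bp with values of 43.7 pooled, 32.1 in replicate 1 (rank 262) and 12.6 in replicate 2 (rank 378). D2021.6 had a site at −27 bp with values of 42.0 pooled, 32.9 in replicate 1 (rank 250) and 11.4 in replicate 2 (rank 465), and the site also lay in the window of sdha-1, a succinate dehydrogenase subunit gene. These 5 ranked among the 832 strongest peaks of both replicates.

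For the next members outside, the replicates differed more. F09G2.14, beside F09G2.2 and attf-2, had a site at −98 bp with values of 40.9 pooled, 7.85 in replicate 1 (rank 10544) and 28.2 in replicate 2 (rank 31). Y53F4B.47, beside cmtr-1 (an mRNA cap methyltransferase), had a site at −77 bp with values of 38.4 pooled, 18.1 in replicate 1 (rank 1082) and 21.9 in replicate 2 (rank 66). Both ranked far higher in replicate 2 than in replicate 1. C01B10.48 had a site at −435 bp with values of 37.3 pooled, 22.9 in replicate 1 (rank 612) and 11.4 in replicate 2 (rank 461), nearer to the linker histone gene hil-7. Y75B12B.12 had a site at −80 bp with values of 34.4 pooled, 21.4 in replicate 1 (rank 740) and 12.5 in replicate 2 (rank 383). F59C6.15 had a site at −47 bp with values of 33.9 pooled, 26.3 in replicate 1 (rank 444) and 8.76 in replicate 2 (rank 844). The sites of Y75B12B.12 and F59C6.15 also lay in the windows of the protein-coding genes Y75B12B.11 and F59C6.18, respectively. F59C6.15 and F25H2.15 (32.4 pooled, at −55 bp) share an identical run of 105 bp across the region before the 5' end and the gene, and how the authors' mapping placed reads from it is not given in the sources used here. The other 8 members outside with a thresholded site were W06H8.17, C36E8.11, C26C6.13, T23G11.12, F30H5.4, W03C9.9, T28B8.11 and Y44A6C.3, with pooled values of 27.4 to 33.1 and distances of −810 to −61 bp. W03C9.9 ranked 3881 in replicate 1 and 132 in replicate 2, and Y44A6C.3 ranked 1000 and 4527. C36E8.11 lies beside tif-1A, which encodes an initiation factor of RNA polymerase I, the enzyme that transcribes the ribosomal RNA precursor.

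**Figure D3:**
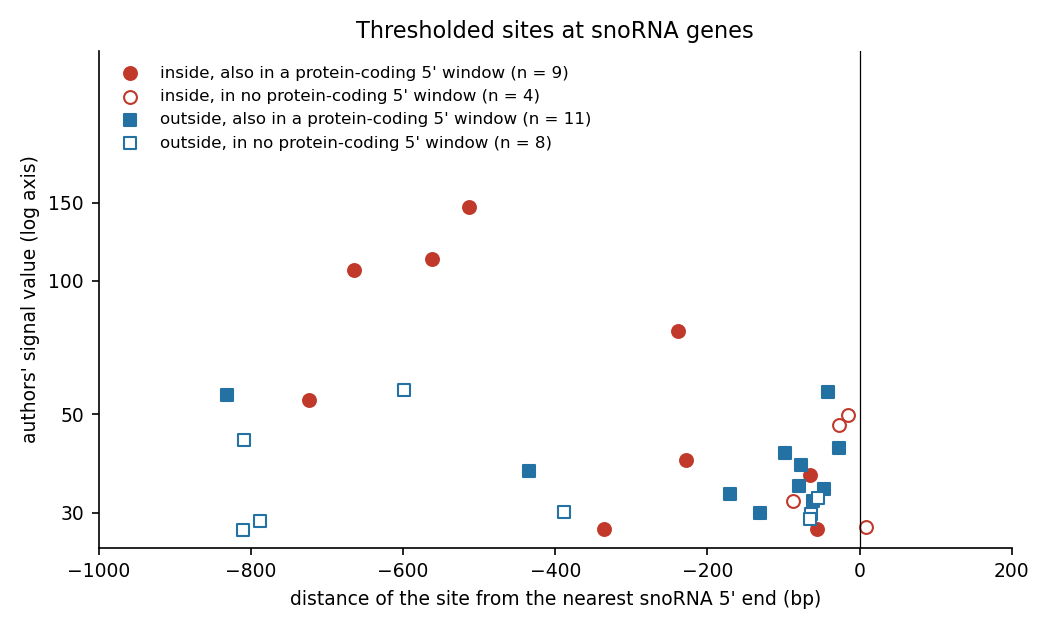
Signal value of the authors' caller (vertical axis, log scale) against the distance of the site from the nearest snoRNA 5' end in bp (horizontal axis) for the 32 thresholded sites at snoRNA genes, by class and by whether the site also lies in a protein-coding 5' window. The 4 sites above 60 are at members inside and between −664 and −239 bp, while the sites within 100 bp upstream lie between 27.5 and 56.1.

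By rank, 23 of the 32 sites overlapped one of the 832 strongest peaks of replicate 1 and 24 one of those of replicate 2. In both replicates at once this held for 17 sites, in replicate 1 alone for 6, in replicate 2 alone for 7, and in neither for 2. The median rank of the sites was 611 in replicate 1 and 459 in replicate 2. All 32 had an overlapping interval in the replicate 1 list, and 31 had one in the replicate 2 list.

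**Figure D4:**
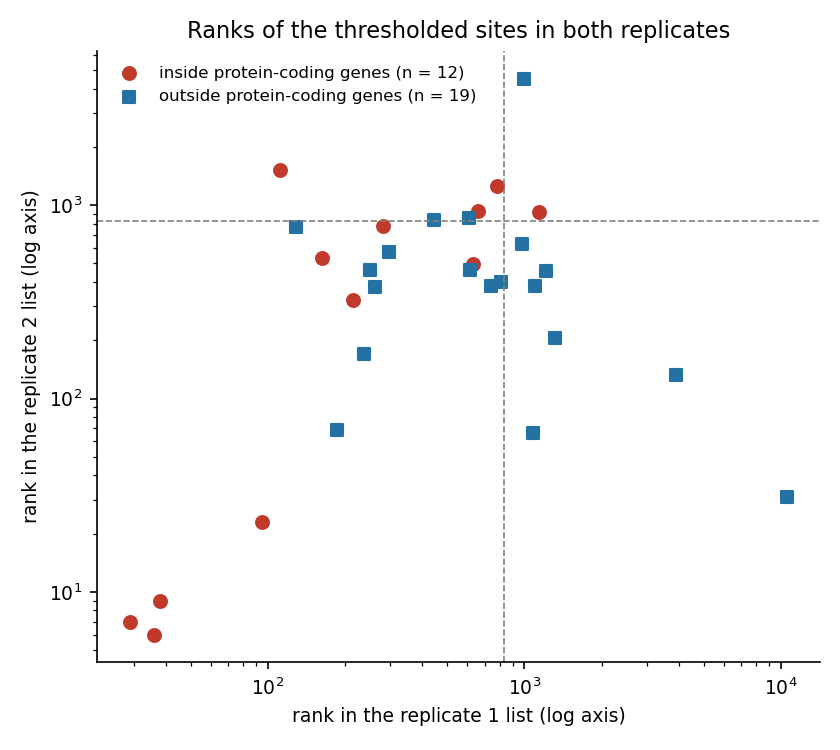
Rank of each thresholded site at a snoRNA gene in the replicate 1 list (horizontal axis, log scale) and in the replicate 2 list (vertical axis, log scale), with dashed lines at rank 832; T04A8.17, with no interval in replicate 2, is not drawn. The lower left corner holds 17 sites, and the site of F09G2.14 lies farthest to the right, at ranks 10544 and 31.

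The elements shown above were then counted on both strands in the 120 bp before every annotated 5' end. The element strings were chosen after the members' sequences had been read, including those of members with a nearby thresholded site. The counts, and the shares with a site by element below, therefore describe the members and support no claim. The spaced element stood before 24 snoRNA genes (6.94%), each time on the strand of the gene, and before 9 protein-coding genes (0.0451%) and 29 of 129 snRNA genes (22.5%). It began between −80 and −54 bp, at a median of −60 bp. The paired A and B boxes stood before 22 snoRNA genes (6.36%), 21 of them on the strand of the gene, and before 49 protein-coding genes (0.245%). The B box alone, which the pair includes, was found before 10.7% of snoRNA genes and 2.95% of protein-coding genes. The spaced element stood before 12 of the 216 members inside (5.56%) and 12 of the 130 outside (9.23%), and the paired boxes on the gene's strand before 12 inside and 9 outside. Of the windows with either element on the strand of the gene, 0 overlapped an annotated tRNA or snRNA gene. An annotated pseudogene overlapped 2 of the windows with A and B boxes, and annotated ncRNA genes overlapped 4 of the 24 windows with the spaced element and 4 of the 21 with A and B boxes.

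Because the strings were chosen with such members in view, a higher thresholded share among genes with an element was partly built in. Most genes with paired A and B boxes on their strand had a site in the relaxed lists. In the thresholded list 6 of 21 did (28.6%, 13.8 to 50%), against 23 of the 301 with neither element (7.64%, 5.15 to 11.2%). In the pooled list it was 19 of 21 (90.5%, 71.1 to 97.3%) against 167 of 301 (55.5%, 49.8 to 61.0%), and in the single replicates 19 and 17 of 21. All 12 inside members with A and B boxes had a pooled site, as did 7 of the 9 outside. Of the 6 with a thresholded site, 5 had it within 100 bp upstream. They are the 5 whose sequences are shown, while C02F5.15 had its site farther upstream.

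Genes with the spaced element had thresholded sites in 5 of 24 cases (20.8%, 9.24 to 40.5%), all within 100 bp upstream. They are ZK994.7 and smy-2 inside, and Y53F4B.47, F59C6.15 and F25H2.15 outside. In the pooled list 14 of 24 had a site (58.3%, 38.8 to 75.5%), close to the 55.5% of members with neither element. Genes with neither element had their thresholded site at a median of −435 bp, and 5 of 23 within 100 bp upstream, namely M7.15, D2021.6, F09G2.14, C36E8.11 and ZK484.9. The strongest site lay within 50 bp of the middle of the element (for the paired boxes, of the stretch from the A box to the B box) in 4 of 24 genes with the spaced element and 4 of 21 with A and B boxes in the thresholded list, and in 11 and 10 in the pooled list.

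**Figure D5:**
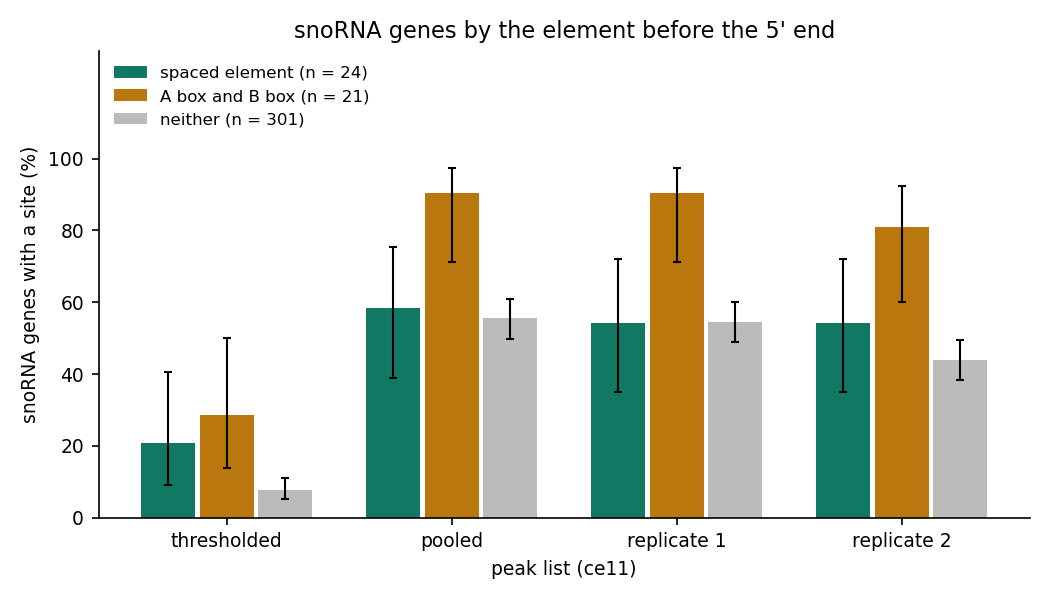
Percent of snoRNA genes with a site in the 5' window (vertical axis) in each of the 4 lists, for members with the spaced element (24), with A and B boxes (21) and with neither (301) in the 120 bp before the 5' end; error bars are 95% Wilson intervals. Members with A and B boxes stand at 90.5% in the pooled list against 55.5% for members with neither, and members with the spaced element at 58.3%. The elements were chosen after the members' sequences had been read, so the split supports no claim.

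The annotated class was checked against the boxes of the snoRNA genes themselves. C and D boxes (TGATGA starting in the first 20 bases and CTGA in the last 20) were found in 15 genes, and ACA at 3 bases before the 3' end in 58, none with both. The other 273 matched neither of these strict forms, which allow no mismatch, so the class rests on the annotation for them. Among ACA box members, 7 of 58 had a thresholded site (12.1%), all 7 inside protein-coding genes, and 45 had a pooled site (77.6%). The 7 rest on 5 distinct sites, and for 6 of them the site lay in the 5' window of the host gene. Among C/D box members, 3 of 15 had a thresholded site and 11 a pooled site, against 24 (8.79%) and 52.7% of the 273. The 3 C/D box members, W03C9.9, F30H5.4 and F55A11.10, are the same as 3 of those with A and B boxes shown above. Their snoRNA genes follow directly on the sequences given there and are shown with the C and D boxes in capitals.
W03C9.9, chrII:11960898-11960959, plus strand: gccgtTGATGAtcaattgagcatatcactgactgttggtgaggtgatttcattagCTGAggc
F30H5.4, chrIII:502804-502889, plus strand: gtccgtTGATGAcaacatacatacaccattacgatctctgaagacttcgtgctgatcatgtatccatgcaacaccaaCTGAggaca
F55A11.10, chrV:11782992-11783082, plus strand: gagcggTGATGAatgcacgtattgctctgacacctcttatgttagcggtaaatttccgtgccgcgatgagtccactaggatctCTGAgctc

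The sites were also searched for the element named for the factor itself, and its share was near the background. The MEF2 element, the A/T-rich consensus of the MEF2 family, lay within 100 bp of 1 of the 32 sites (3.12%), against 40 of all 806 nuclear thresholded sites (4.96%) and 3.69% of those at protein-coding 5' ends. In the same windows the spaced element was found at 5 of 32 (15.6%) against 1.12% of all 806, and A and B boxes at 5 of 32 (15.6%) against 2.36%. Both strings were chosen after the members' sequences had been read, and the 806 sites include the 32. These 2 contrasts therefore support no claim. In the 120 bp before the 5' end, the MEF2 element stood before 12 snoRNA genes (3.47%) and 5.38% of protein-coding genes. The TATA box (TATAAA, either strand) stood before 43 snoRNA genes (12.4%) and 21.9% of protein-coding genes. The TATA box lay within 100 bp of 6 of the 32 sites (18.8%), against 10.2% of all nuclear sites and 9.45% of those at protein-coding 5' ends. These 6 are few, the 806 include the 32, and the windows differ from the 120 bp before the 5' end. No direction is therefore read from the TATA box counts at the sites. The median GC content within 100 bp of the site was 48.3% at snoRNA genes and 45.3% over all nuclear sites, and its part in these counts was not tested. The single MEF2 element was at the site of T27A8.8, shown with the element in capitals.
T27A8.8, chrX:16056564-16056593, plus strand: tcatggcactTTATATTTAAaagtcagatg

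Members just under the threshold had values close to those just above it. The lowest thresholded site at a member was that of Y44A6C.3, with 27.4. The strongest pooled sites below the threshold were, inside, those of Y43F8C.22 (27.0), Y55F3BR.9 (26.5) and C04G6.12 (26.1). Outside, they were those of Y53F4B.48 (27.3), T19E7.29 (27.0) and C15F1.15 (25.5). Each of these 6 also had a site in both replicate lists, and 3 had their pooled site within 100 bp upstream of the 5' end.

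The protein partners of snoRNAs were followed through a list of 10 genes. All 10 had a pooled site, 8 a replicate 1 site and 9 a replicate 2 site, against 38.5%, 39.6% and 25.3% of protein-coding genes. Thresholded sites stood before 3 of the 10, against 2.93% of protein-coding genes. fib-1, which encodes fibrillarin, the methyltransferase of C/D box particles, had a site at −73 bp with values of 38.5 pooled, 33.3 in replicate 1 (rank 241) and 7.72 in replicate 2 (rank 1078). Y48A6B.3, listed as the worm NHP2 of H/ACA box particles, had one at −309 bp with 36.9 pooled, 23.0 in replicate 1 (rank 606) and 12.8 in replicate 2 (rank 355). ruvb-2, an AAA ATPase gene whose product helps assemble the particles, had one at −116 bp with 33.4 pooled, 21.3 in replicate 1 (rank 748) and 10 in replicate 2 (rank 632). Thus each branch of the list had 1 thresholded member. The other 7 had weaker pooled sites. Of these, dkc-1, which encodes the pseudouridine synthase of H/ACA box particles, had the highest value, 20.9, and garr-1 and nola-3 of the same particles had 12.8 and 10.1. Of the C/D box particle genes, nol-56 had 16.3, nol-58 had 8.67 and snu-13 had 8.17, and the assembly gene ruvb-1 had 9.65. nol-58 and nola-3 had no site in the replicate 1 list, and snu-13 had no site in the replicate 2 list.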

How the data were processed

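ChIP-seq peaks of eGFP-tagged MEF-2 came from 2 biological replicates of whole L1 larvae. Per the deposited file records, relaxed lists were called against a control for each replicate and for the pooled replicates, and the thresholded list was made from those. The aligner, peak caller, versions and threshold are not stated in the labels or file records used. Each deposited peak has a signal value on an unstated scale, a −log10 q-value, which was not used, and the offset of its point source, which gave the site. The 4 lists on ce11 were used and those on ce10 were not, since no coordinates were converted.

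Gene models and classes were those of Ensembl release 115, and sequence was read from the RefSeq copy of WBcel235. Inside means wholly within the span of a protein-coding gene on either strand. A site counted for every gene whose window held it, and the strongest was described. Sites were matched between lists by an overlap of at least 1 bp. With 1 group, no test was run: shares have 95% Wilson intervals beside the same share over protein-coding and all nuclear genes. The labels call the replicates biological and do not say whether they were separate cultures. Site assignment was checked on simulated peaks. Python 3.11.15, numpy 2.4.6, pandas 2.3.3, scipy 1.17.1 and matplotlib 3.10.9 were used.

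The members and lists were chosen with earlier results of these data known. Full values were given for the 10 strongest sites in each class, with the 3 strongest just under the threshold in each, and the partner genes with a site were named; other members were named or counted. In the partner list 1 gene was matched by its sequence name, Y66H1A.4 (garr-1), because the alias first written for it names another gene. Alternatives were another window, interval overlap, a stricter threshold, single replicates, peaks away from mef-2, hosts on the same strand, the nearest 5' end and lists of equal length.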

Additional observations from a re-analysis of the deposited data

How the results depend on the processing

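Of 48 alternative values, 36 stayed within 1.5 times the reported count and 12 did not. Some of the 36 could not move, so the tally overstates stability. The replicate 2 list is itself the shortest, so cutting to that length left it unchanged. The strand of the host has no bearing on counts over all members. Leaving out peaks within 20 kb of mef-2 changed none of the counts. With 500 bp before and 100 bp after the 5' end as the window, 9 members inside had a thresholded site, and 10 members had one that was also in a protein-coding window, against 22 as reported. With that window 2.24% of protein-coding genes had a thresholded site, against 2.93% as reported. In the stronger 416 of the 832 peaks the counts were 18 members, 8 outside, 16 distinct sites and 14 in a protein-coding window. With each site given to the nearest 5' end, 6 members inside kept one, and 0 were then shared with a protein-coding window by construction. Under that rule the protein-coding share was 2.10%. Among peaks that also overlap the 832 strongest of both replicates, an alternative added after the ranks had been seen, the counts were 19 members, 9 outside, 17 distinct sites and 14 in a protein-coding window. Both stricter lists hold fewer peaks by construction, and protein-coding shares were then 1.43% and 1.55%. In the 832 strongest peaks of single replicates, the counts ran from 29 to 43 members, 15 to 22 inside, 14 to 21 outside, 27 to 42 distinct sites and 19 to 24 in a protein-coding window. The protein-coding share was 3.00% without replicate 1 and 2.68% without replicate 2. No paired analysis was possible because there is 1 group. Without read counts or a control, depth is unknown, so a member with no site may lie below what these lists could show.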
